A study of Drosophila melanogaster with 3 samples.

Results

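The genes examined encode the translation factors and the aminoacyl-tRNA synthetases of Drosophila melanogaster. They were chosen by symbol alone: every protein-coding gene whose symbol starts with eIF or eEF followed by a digit, or consists of a 3-letter amino acid code and RS, with or without -m. That rule gave 83 of the 13945 protein-coding genes on the main chromosome arms, namely 51 initiation and elongation factors, 17 synthetases without -m (called cytoplasmic here) and 15 with it (called mitochondrial). The symbol is the basis of these classes, and some cytoplasmic synthetase genes may also supply the mitochondrion.

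The measurement was chromatin immunoprecipitation with sequencing (ChIP-seq) of D19A, a zinc finger protein of the ZAD family, in whole embryos aged 0 to 20 h and of both sexes. All embryos came from a single transgenic fly line that stably expresses D19A with eGFP at its C-terminus, and the fragment range was 200 to 800 bp. The labels disagree on the antibody: the description names one against GFP and the antibody field reads D19A, so whether untagged D19A was also precipitated is not settled. The promoter that drives the fusion is not given in the sources used here, and no embryos without the tag are among the samples. The 3 libraries are biological replicates of 1 group, so no comparison of conditions was possible, and whole embryos of this age range mix many cell types.

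Each library has a list of 30000 peaks, the pooled data have another of the same length, and the list kept by the authors after their irreproducible discovery rate procedure, called the IDR list below, has 7769. A peak's summit is its deposited point of highest signal. Its rank is its place by the authors' signal value in its own list, 1 being the strongest. A gene was called marked when a summit lay within 250 bp of any of its annotated transcription start sites (TSSs), and all coordinates are dm6. Replicate ranks given beside an IDR rank are those of the strongest overlapping peak in each library, whose summit can lie beyond that distance. The peak lists hold no read counts, so sequencing depth cannot be set against the ranks.

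Translation factors act in steps. Initiation factors bring the small ribosomal subunit to the mRNA cap and to the start codon, and elongation factors then deliver charged tRNAs and move the ribosome along. Synthetases charge each tRNA with its amino acid, with separate enzymes for the cytoplasm and for the mitochondrion in most cases.

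The sequences under the summits differed in kind between members. The bases within 50 bp of the IDR summit are shown for 4 cytoplasmic synthetases, for eIF4EHP and for eEF1gamma. eIF4EHP had the strongest peak of all members. The eEF1gamma window was the only member window to hold the sequence TATCGATA, the DNA replication-related element (DRE). The sequences were read from the RefSeq assembly and are written 5′ to 3′ on the strand of the gene. Unbroken runs of at least 6 A or T are in capitals. None of these windows touches an annotated UTR.
IleRS (chr3L:22288442-22288542, plus strand): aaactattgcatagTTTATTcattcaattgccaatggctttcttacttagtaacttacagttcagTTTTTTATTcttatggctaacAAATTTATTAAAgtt
ThrRS (chr2L:12103477-12103577, plus strand): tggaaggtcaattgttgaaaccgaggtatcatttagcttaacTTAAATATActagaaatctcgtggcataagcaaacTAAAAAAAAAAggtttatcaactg
AsnRS (chr2L:19132086-19132186, minus strand): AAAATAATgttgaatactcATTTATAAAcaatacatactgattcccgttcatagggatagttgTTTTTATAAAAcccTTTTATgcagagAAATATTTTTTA
GlyRS (chr3L:15094878-15094978, plus strand): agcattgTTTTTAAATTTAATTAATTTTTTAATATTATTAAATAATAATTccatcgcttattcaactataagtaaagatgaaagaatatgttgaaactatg
eIF4EHP (chr3R:24109134-24109234, minus strand): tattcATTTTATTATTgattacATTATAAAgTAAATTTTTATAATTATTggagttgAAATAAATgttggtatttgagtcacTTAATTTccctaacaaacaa
eEF1gamma (chr3R:29220065-29220165, plus strand): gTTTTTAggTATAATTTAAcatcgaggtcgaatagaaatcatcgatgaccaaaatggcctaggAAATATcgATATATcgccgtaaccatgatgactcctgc

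The GlyRS window held the longest such run of those shown, 43 bp. The longest run was 18 bp in the eIF4EHP window, 12 bp in those of IleRS and AsnRS, 11 bp in that of ThrRS and 10 bp in that of eEF1gamma. A or T made up 82.2% of the GlyRS window, 80.2% of the eIF4EHP window and 61.4% of the eEF1gamma window. It made up 75.2% of the AsnRS window, 74.3% of the IleRS window and 68.3% of the ThrRS window. The median over all protein-coding promoter peaks was 68.3%, so the ThrRS window was no richer than that. Run lengths over all promoter peaks are not given here.

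In the IDR list, 20 of the 83 members were marked (24.1%, 95% Wilson interval 16.2% to 34.3%), against 15.3% of all protein-coding genes. Cytoplasmic synthetases were marked at 5 of 17 (29.4%, interval 13.3% to 53.1%), factors at 12 of 51 (23.5%, interval 14% to 36.8%) and mitochondrial synthetases at 3 of 15 (20%, interval 7.05% to 45.2%). The intervals cover the counting of genes alone, and those of the 3 classes overlap over most of their length. No test of the classes was made.

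The libraries differed in how many members they marked. Among the 7769 strongest peaks of each list, replicate 1 marked 21 members (25.3%, against 14.5% of protein-coding genes), replicate 2 marked 27 (32.5%, against 18.0%) and replicate 3 marked 14 (16.9%, against 13.5%), a mean of 20.7 ± 6.51 (SD, n = 3). Replicate 2 thus stood highest and replicate 3 lowest, for the members as for all genes, and in replicate 3 the members were close to the background. By class, the means were 6.33 ± 1.53 cytoplasmic synthetases, 12 ± 4 factors and 2.33 ± 1.15 mitochondrial synthetases. In each of the 3 libraries the share was higher for the cytoplasmic synthetases (35.3%, 47.1% and 29.4%) than for the mitochondrial ones (20%, 20% and 6.67%), but the libraries look at the same few genes, so this order is a description.

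Weaker peaks raised the shares of members and of all genes alike. In the full lists the members marked were 36 in replicate 1 (43.4%, against 30.6%), 38 in replicate 2 (45.8%, against 35.8%) and 32 in replicate 3 (38.6%, against 28.4%). The pooled list marked 31 members (37.3%, against 31.0%). When an IDR summit anywhere in the gene also counted, 23 members had one (27.7%, against 23.7%), which is near the background. Among the 3884 strongest IDR peaks that count was 11 (13.3%), below the 15.1% of all protein-coding genes. Median gene length was 2522 bp for members and 2166 bp for all protein-coding genes. Keeping only IDR peaks that overlap the 7769 strongest peaks of both other libraries left 13 marked members without replicate 1 (15.7%, against 11.1% of protein-coding genes), 13 without replicate 2 (15.7%, against 10.7%) and 17 without replicate 3 (20.5%, against 12.4%).

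**Figure D1:**
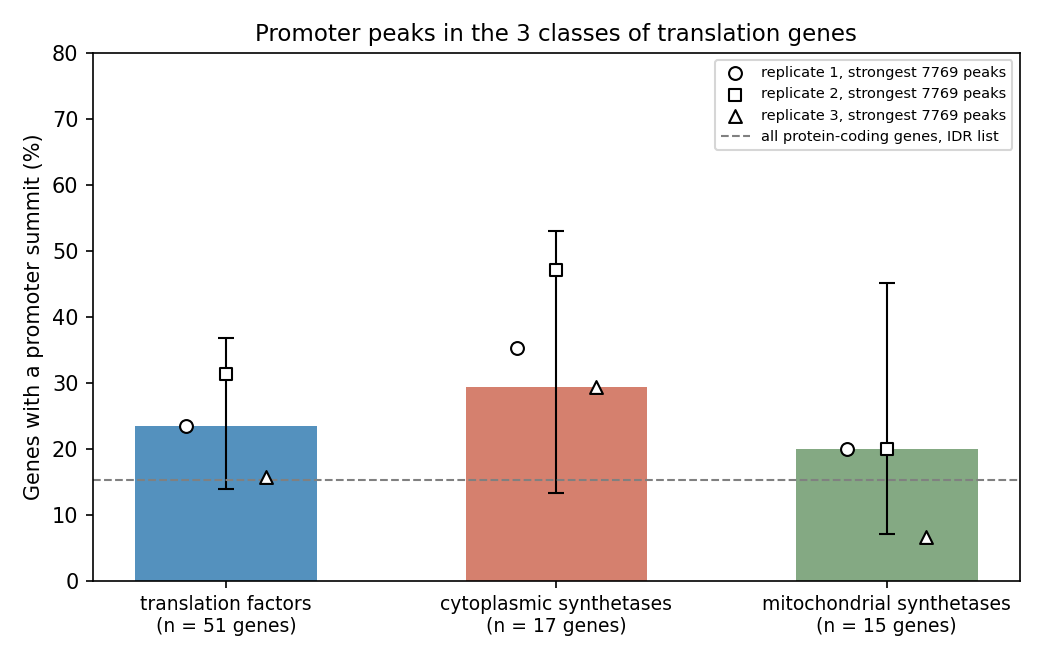
Share of genes with a promoter summit (%) in each class; bars give the IDR list with 95% Wilson intervals, open symbols the 7769 strongest peaks of each replicate, and the dashed line the 15.3% of all protein-coding genes. Replicate 2 lies highest or level with the highest and replicate 3 lowest in each class, and the intervals overlap.

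The strongest member peak stood at eIF4EHP, a cap-binding protein related to eIF4E that does not bind eIF4G and represses translation of caudal and hunchback mRNAs in the early embryo. Its peak (3R, 24108924 to 24109435) ranked 94 in the IDR list, and the overlapping peaks ranked 111, 65 and 154 in replicates 1, 2 and 3. The next promoter peak among the members, that of IleRS, ranked 941. The eIF4EHP summit lay 224 bp upstream of its TSS and 152 bp from that of the head-to-head gene CG18428, so the peak counts for both.

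Of the initiation factors whose symbols start with neither eIF2, eIF3 nor eIF4, 4 of 5 were marked (interval 37.6% to 96.4%, against 15.3% of all protein-coding genes). The group was set by symbol alone, not by complex. eIF2A and eIF2D, both unmarked, were counted with the eIF2-named genes. Among the 7769 strongest peaks of replicates 1, 2 and 3 the number marked in this group was 2, 3 and 3. eIF6, which keeps large ribosomal subunits from joining small ones too early, had a peak of rank 1098 (1379, 844 and 1687 in the replicates), 100 bp upstream of its TSS and inside an exon of the antisense RNA asRNA:CR45928. eIF5B, the GTPase that joins the ribosomal subunits, had one of rank 2614 (2692, 2674 and 3026), 140 bp from a TSS and within the 5′ UTR of another of its transcripts. These peaks held similar places in all 3 libraries.

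The peaks of eIF1 and eIF5 did not. eIF1, which guards the choice of the start codon, ranked 3141 in the IDR list, but the overlapping peaks ranked 21723, 2986 and 12975, and the nearest summits of replicates 1 and 3 lay 216 and 200 bp away from the IDR summit. That summit was 223 bp from the TSS of eIF1 and 158 bp from that of the ribosomal protein gene RpL28, which is transcribed away from it. eIF5, which makes eIF2 hydrolyse its GTP, ranked 7136 (12224, 9578 and 4420), with replicate 3 the highest. eIF1A, which works beside eIF1, was the unmarked member of this group.

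Elongation factors were marked at 4 of 7 (57.1%, interval 25% to 84.2%, against 15.3% of all protein-coding genes). eEF1gamma, a subunit of the exchange factor that recharges eEF1alpha with GTP, ranked 2297 (3070, 2040 and 2753) with its summit 57 bp upstream of the TSS. eEF1alpha1, which carries charged tRNA to the ribosome, ranked 4804 (4895, 4486 and 6341), 12 bp upstream of an internal TSS. eEF5, known elsewhere as eIF5A, which helps the ribosome form difficult peptide bonds, ranked 5150 (5152, 5248 and 5717), 9 bp upstream. The spread over the libraries was small for these 3 genes. It was larger for eEF2, the translocase, which ranked 6553 (7763, 4475 and 10361) 15 bp upstream of a TSS.

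eIF3, the large complex that holds the small subunit during initiation, was marked at 3 of its 16 genes (18.8%), near the 15.3% of all protein-coding genes. eIF3c ranked 3086 (3500, 2378 and 9932), eIF3h 5716 (3255, 2404 and 3239) and eIF3m 6431 (6273, 6671 and 9586). eIF3h had the only member summit downstream of its TSS, by 47 bp and in a coding exon, and a further IDR summit in its intron, rank 2656, overlapped the same replicate peaks. In replicate 2 the best promoter summit of eIF3h ranked 4224. Replicate 3 placed eIF3c and eIF3m beyond its 7769 strongest peaks.

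The eIF2B, other eIF2-named and eIF4 genes had few promoter summits in the IDR list. Their numbers are small, and the 15.3% of all genes lies within the interval of each group. None of the 5 eIF2B genes, which encode the exchange factor of eIF2, had a promoter summit in the IDR list (interval 0% to 43.4%) or in the pooled list. Of the 5 other eIF2-named genes none was marked, and eIF2A alone had a pooled promoter summit. Among the 13 eIF4 genes eIF4EHP alone was marked in the IDR list (7.69%, interval 1.37% to 33.3%). In the pooled list 5 of them had a promoter summit (38.5%, against 31.0% of all protein-coding genes). The subunits of eIF4F, the complex that binds the cap, were among these. eIF4E1 (pooled rank 8536), eIF4A (pooled rank 8967) and eIF4G1 (pooled rank 11463) had no IDR summit at the promoter but a promoter summit in all 3 replicate lists. The best promoter peaks ranked 12617, 7540 and 12579 for eIF4E1, 10802, 6620 and 12250 for eIF4A and 9210, 13166 and 9809 for eIF4G1. Replicate 2 thus placed eIF4E1 and eIF4A among its 7769 strongest peaks, and the other summits ranked lower. Of the 6 factor genes whose symbol ends in 2 beside a copy ending in 1 (eIF3d2, eIF3f2, eIF3g2, eIF4G2, eIF4H2 and eEF1alpha2), 0 were marked, and of the 6 copies ending in 1 only eEF1alpha1 was, so the copies differ by 1 gene. eIF4G2 had a promoter summit in the pooled list and in all 3 replicate lists.

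Cytoplasmic synthetases had the peaks most alike in place. IleRS, which charges isoleucine tRNA, had a peak of rank 941 (3L, 22288241 to 22288657; 1065, 808 and 1166 in the replicates). ThrRS ranked 2351 (2140, 2266 and 3692), AsnRS 4569 (4870, 4373 and 6530), GlyRS 5206 (5717, 5993 and 4655) and AlaRS 6307 (7665, 6461 and 7389). All 5 peaks overlapped the 7769 strongest of every library, against 7 of 12 for factors, 1 of 3 for mitochondrial synthetases and 67% of the IDR promoter peaks of all protein-coding genes. For AsnRS the overlapping peak of replicate 3 had its summit outside the promoter window, so 4 of the 5 genes had their own promoter summit among the strongest of every library. The IDR summits lay 106 to 224 bp upstream of the TSS, so none counted within 100 bp.

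Of the 3 marked mitochondrial synthetases, LeuRS-m, for leucine, had the strongest peak, rank 1522 (3L, 4825590 to 4825932; 1863, 1807 and 1090 in the replicates). Its summit lay 36 bp upstream of its TSS and 130 bp from that of Dhc64C, the heavy chain of cytoplasmic dynein. CysRS-m ranked 5085 (5825, 4046 and 11228), 37 bp from the TSS of O-fut1, the enzyme that puts fucose on Notch. PheRS-m stood almost at the end of the IDR list, rank 7740 (8204, 6512 and 8072). Its best promoter summit in replicate 1 ranked 12476. LeuRS-m was thus among the strongest in all 3 libraries, while replicate 3 placed the other 2 beyond its 7769 strongest peaks.

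**Figure D2:**
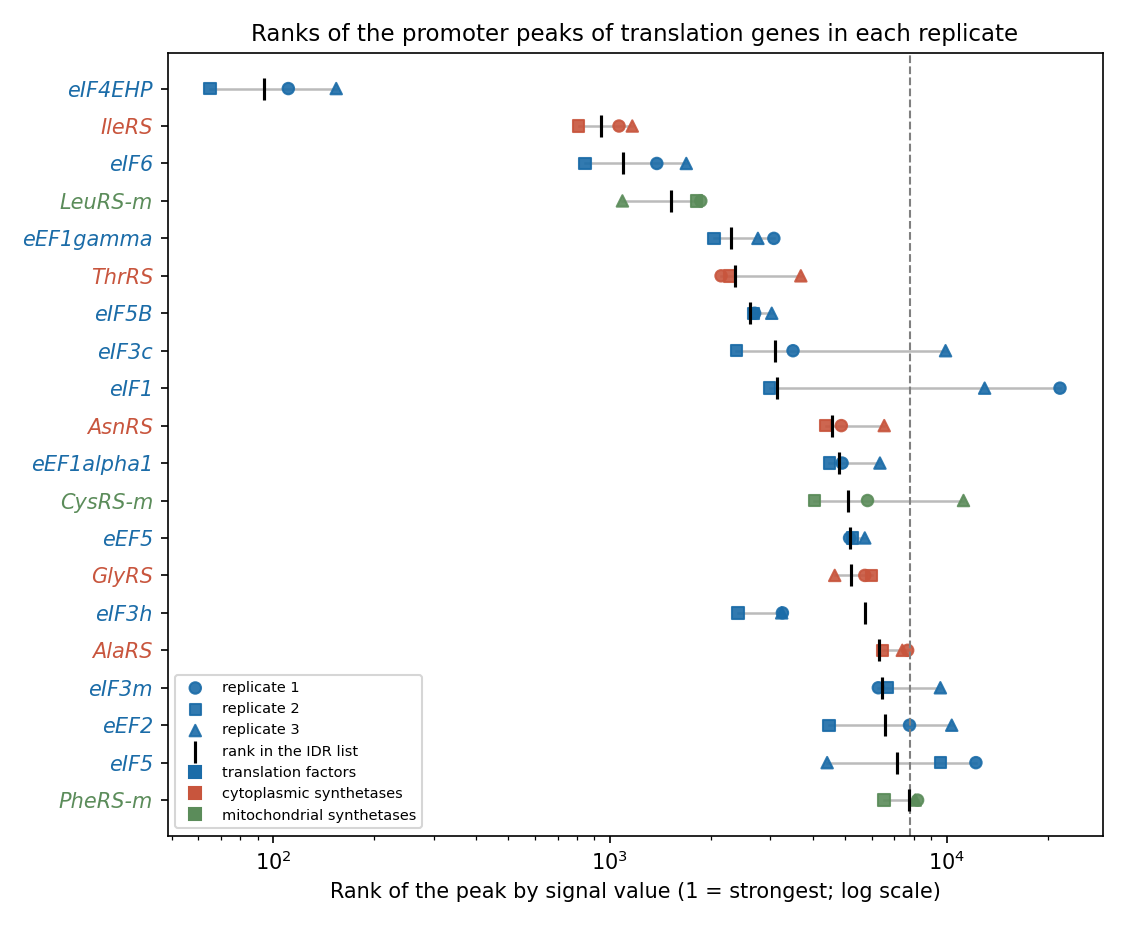
Rank of each of the 20 member promoter peaks in the IDR list (black tick) and of the strongest peak overlapping it in the 3 replicate lists (symbols, joined by a line). The axis is a log axis with 1 the strongest, the dashed line stands at rank 7769 and colours give the class. The replicate ranks of eIF4EHP lie between 65 and 154, while those of eIF1 lie between 2986 and 21723.

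As a group the marked members were of middling strength. The median IDR rank of the 20 peaks was 4686, against 4120 for the 1849 IDR promoter peaks of all protein-coding genes, and 11 of 20 (55%) ranked beyond the 3884 strongest peaks, against 53.3%. All 20 were overlapped by a peak in the full list of every replicate (94.4% for all protein-coding promoter peaks), and 13 of 20 (65%) by a peak among the 7769 strongest in each library. Because these libraries also made the IDR list, this support is a description. Replicate summits lay within 100 bp of the IDR summit in every library for 16 of the 20.

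The place of the summit and the base composition under it went together. A or T made up 64.3% ± 12.3 (SD over 20 summits) of the bases within 50 bp of member summits, against 66% ± 11 at all protein-coding promoter peaks. For the 10 summits within 100 bp of the member's own TSS the mean was 55% ± 7.46 and the range 44.6% to 69.3%. For the 10 farther away it was 73.7% ± 8.38, with a range of 53.5% to 82.2%. The summits of eEF1alpha1 (44.6%), eIF3h (48.5%), eEF2 (49.5%) and eEF5 (50.5%), all within 50 bp of a TSS, were the poorest in A and T. Those of GlyRS (82.2%), eIF1 (81.2%) and eIF4EHP (80.2%), all over 200 bp from the member's own TSS, were the richest.

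Across the 20 member summits, distance to the member's own TSS and A or T share had a Pearson r of 0.841. Across the 1849 peaks of all protein-coding genes, with distance to the nearest protein-coding TSS, it was 0.35. These distances differ for shared summits. The CysRS-m summit lay 131 bp from its own TSS but 37 bp from that of O-fut1. The r values are therefore not like for like. These are descriptions over summits that share libraries and the base composition of promoters. By distance to the nearest protein-coding TSS, the peaks of all genes differed in the same direction, with 60.9% ± 10.7 within 100 bp and 69.4% ± 9.8 beyond.

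The classes followed that pattern. The 5 cytoplasmic synthetase summits held 75.2% ± 4.95 A or T, at a median of 182 bp from the TSS. The 12 factor summits held 61.1% ± 12.7, at a median of 59 bp, and 8 of them were within 100 bp. The 3 mitochondrial synthetase summits held 59.1% ± 9.92, at a median of 91 bp. Class, distance and composition therefore cannot be told apart with these 20 summits.

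**Figure D3:**
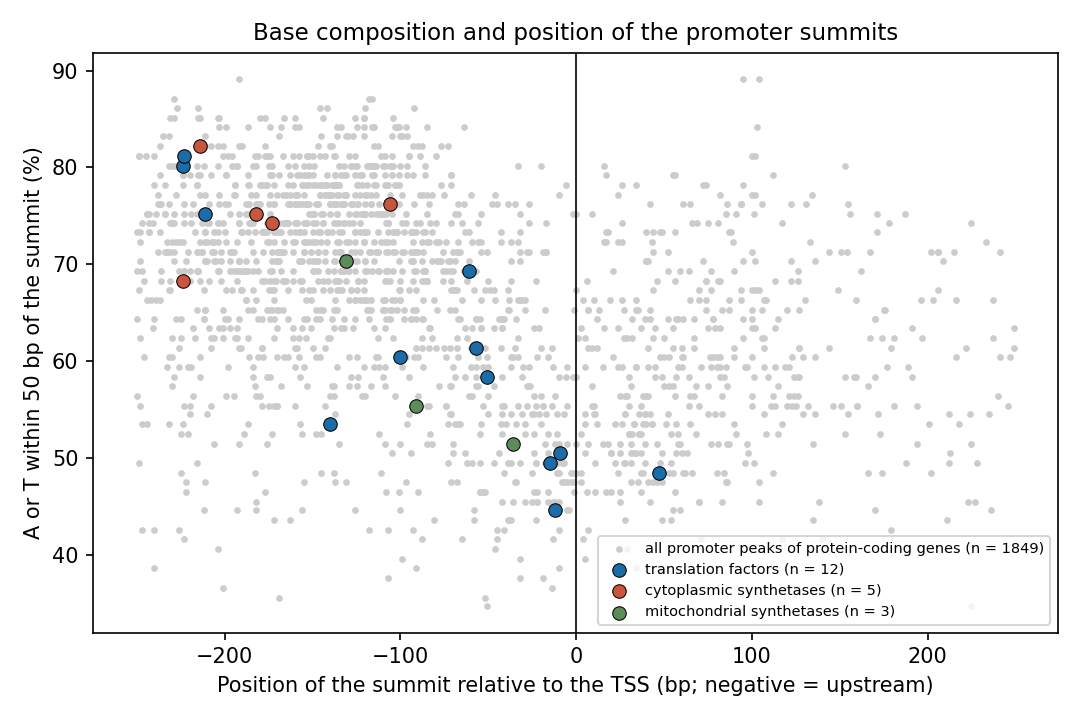
A or T share (%) within 50 bp of each IDR promoter summit against its position relative to the TSS in bp (negative is upstream). Grey points are all 1849 protein-coding promoter peaks, placed by the nearest protein-coding TSS. Coloured points are the members by class, placed by the member's own TSS. Cytoplasmic synthetase summits lie 106 to 224 bp upstream at 68.3% to 82.2%, and the 3 factor summits of eEF1alpha1, eEF2 and eEF5 next to the TSS lie at 44.6% to 50.5%.

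The DNA of unmarked members had a similar shape. Averaged over 51 bp, the A or T share 140 bp upstream of the TSS was 71.7% in the 20 marked members, 68.4% in the 63 unmarked ones and 64.3% in all protein-coding genes. At the TSS it was 54.4%, 56.5% and 56.1%. Farther upstream, at 240 bp, the marked members stood at 70.9% and the unmarked at 59.8%, close to the 62.7% of all genes. The order of the marked and unmarked members was not steady. At 190 bp they stood at 65.5% and 66.9%, and at 110 bp at 68.2% and 70.2%. In windows of 50 bp on each side of a point 103 bp upstream of the TSS, the median place of the member summits, the unmarked members held 67.3% ± 9.71 A or T. All protein-coding promoters held 62.5% ± 11. The marked members held 64.3% ± 12.3 at their summits, which is a different placing of the window.

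**Figure D4:**
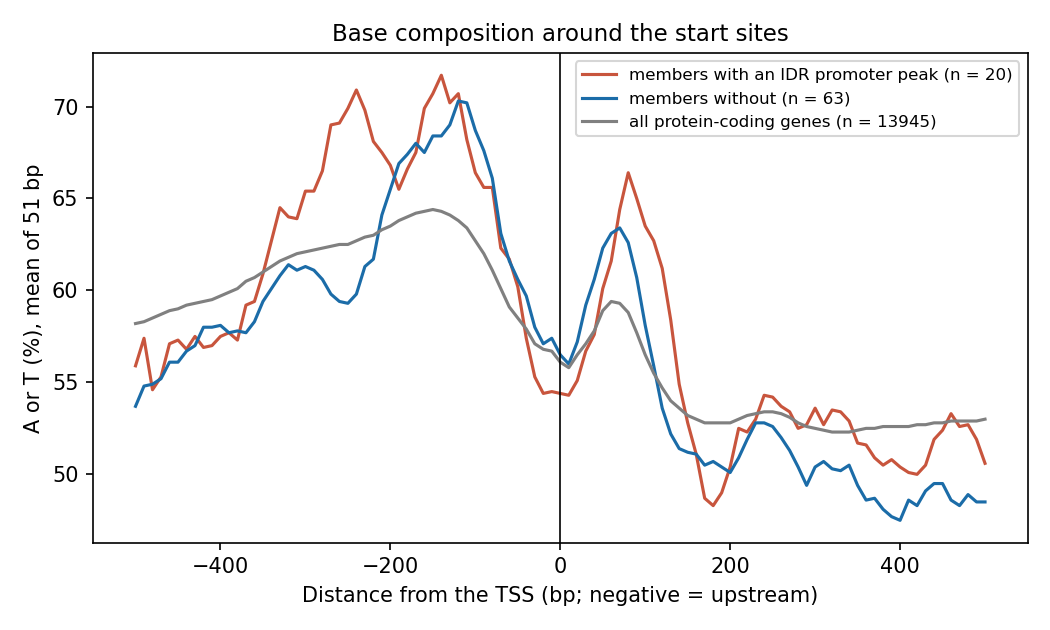
A or T share (%, mean of 51 bp) against distance from the TSS in bp for the 20 marked members, the 63 unmarked members and all 13945 protein-coding genes. All 3 lines are high upstream and dip at the TSS, to 54.4%, 56.5% and 56.1%. The line of the marked members falls to 65.5% at 190 bp upstream, below the unmarked, and stands at 70.9% at 240 bp.

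The short words searched for, not all of them known promoter elements, were found at few member summits. Each was searched on both strands in the same windows around the summit. Promoter windows placed without a summit had the same length and were centred 103 bp upstream of the TSS. CGATA, which is also the core of the DRE and so overlaps it, was in 3 of 20 member windows (15%), those of eEF1gamma, eEF2 and eIF5B, against 17.2% of all protein-coding promoter summits and 19.8% of 13945 protein-coding promoters. The full DRE, TATCGATA, was in the eEF1gamma window alone (5%, against 1.84% and 2.5%). CACGTG, an E-box, was in the window of LeuRS-m alone (against 1.03% and 1.04%), GAGAG in that of eIF3c alone (against 10.1% and 13.5%), and TATAAA in 4 (20%, against 26.2% and 18.2%). AAATATAT was in 3 windows (15%, against 7.79% and 4.85%), those of CysRS-m, eIF5 and eIF5B, and ATATTTAA in another 3 (15%, against 6.38% and 4.47%), those of AlaRS, ThrRS and eIF1. CTCTTTCT and TGATTGAT were in 0 windows. With 20 windows, 1 match is 5%, so these shares are coarse. In the windows of the 63 unmarked members, placed without a summit, CGATA and TATAAA were each found in 27%. The other words were found there in at most 4.76%.

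Summits sat mostly upstream, between genes. Of the 20 member summits, 19 were upstream of the member's TSS (95%), against 78.7% of the 2313 pairs of a protein-coding gene and an IDR promoter peak. Of the 20, 14 were intergenic, and the intergenic share over all protein-coding promoter peaks is not given here. AlaRS was an exception in place, since its summit lay 106 bp upstream but in the 3′ UTR of the neighbouring gene CG13392.

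Many members have a head-to-head neighbour, whether marked or not. A TSS of another gene lay within 500 bp upstream on the opposite strand for 38 of 83 members (45.8%), against 28% of protein-coding genes. The share was 13 of 17 for cytoplasmic synthetases (76.5%, interval 52.7% to 90.4%), 18 of 51 for factors (35.3%, interval 23.6% to 49%) and 7 of 15 for mitochondrial synthetases (46.7%, interval 24.8% to 69.9%). Of the marked members 12 of 20 had such a neighbour (60%, interval 38.7% to 78.1%), against 26 of 63 unmarked ones (41.3%, interval 30% to 53.6%). The start site used here and below was the one nearest an IDR summit for marked genes. For unmarked genes it was the most 5′ one, so marked and unmarked genes were not measured alike.

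Marking was read within each kind of promoter too. Members with a divergent promoter were marked at 12 of 38 (31.6%, against 24.6% of protein-coding genes with such a promoter), and the others at 8 of 45 (17.8%, against 11.7%). The part of this gene arrangement in the count of marked members was not tested.

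For 11 of the 20 marked members, the summit also lay within 250 bp of a TSS of another gene. Besides those named above, these were ThrRS with Patsas, AsnRS with DCTN6-p27, GlyRS with Plp and sstn, eIF3h with senju, eIF3m with CG8323, and eIF5 with CG46312, which starts at the same place on the same strand. The AsnRS summit lay 182 bp from its own TSS and 187 bp from that of DCTN6-p27, and the GlyRS summit 214 bp from its own and 204 bp from that of Plp, a centrosomal protein. The summits of eIF4EHP, eIF6, eIF1, CysRS-m and GlyRS were nearer to the neighbour than to the member. Peak lists cannot assign such a summit to either gene. Shared summits were not particular to members, since the 1849 IDR promoter peaks of all protein-coding genes made 2313 pairs of gene and peak. The share of genes with such a summit over all protein-coding genes is not given here, so the 11 of 20 are a description.

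Within genes, 17 IDR summits fell in 9 members, 12 of them in introns, and 13 lay beyond the promoter window. The like shares over all protein-coding genes are not given here, so these counts are a description. With promoter summits included, 27.7% of members had an IDR summit, near the 23.7% of all protein-coding genes. eIF5B, a gene of 32320 bp on 3L, held 7 of the 17. Its 6 intronic summits lay 9973 to 27753 bp from its nearest TSS, with IDR ranks of 2090, 2130, 3233, 4641, 5091 and 7119. The strongest, 3432706 to 3432978, ranked 2398, 1672 and 3443 in the replicates. The summits of ranks 2090, 2130, 4641 and 5091 lay nearer to a TSS of the gene sty than to one of eIF5B. Their distances to it were 7915, 13718, 12428 and 10192 bp. Of 706 protein-coding genes of 20000 to 50000 bp, 46 (6.52%) held 7 or more summits, and the median was 1.

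eIF4EHP, the longest member at 45884 bp, held 2 summits in its introns (ranks 1433 and 5075) besides the strong one before its TSS. Both lay nearer to Syx1A, which encodes a syntaxin, than to the start of eIF4EHP, at 6613 and 648 bp from a Syx1A TSS. Of the 706 genes of similar length, 44.8% held at least 2 summits.

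**Figure D5:**
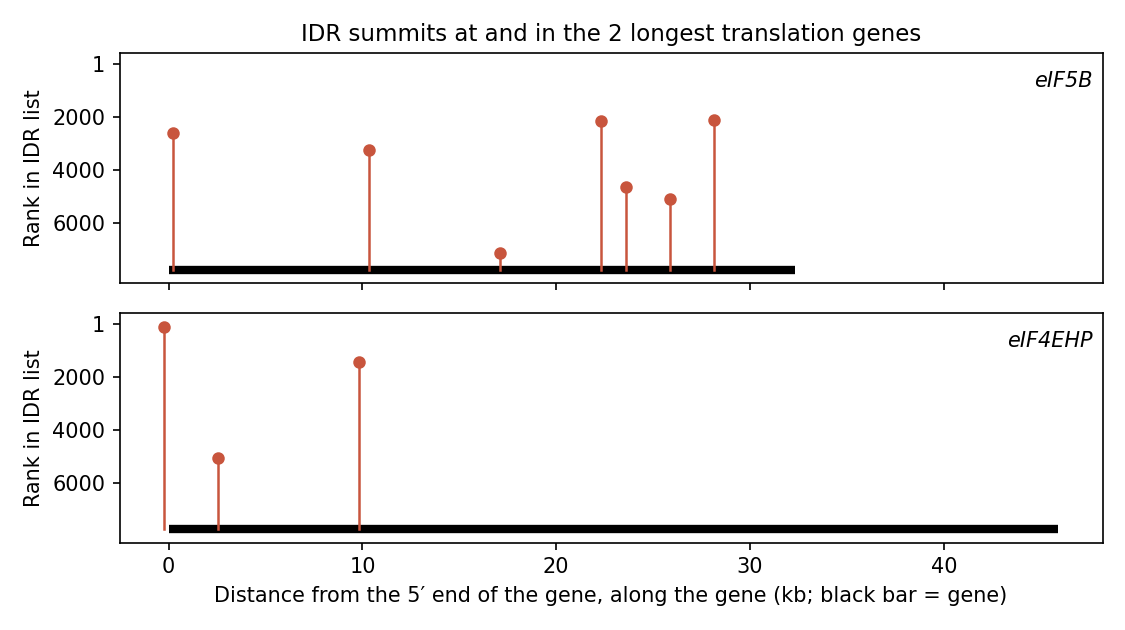
IDR summits along eIF5B and eIF4EHP, the 2 longest members, placed by distance from the 5′ end of the gene in kb, with the height showing the rank in the IDR list (1 at the top) and the black bar the gene. The eIF5B summits spread over the gene, and the strongest eIF4EHP summit, rank 94, stands just before its start.

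AspRS, HisRS and eEF1delta had an IDR summit in the gene and none at the promoter. The HisRS summit lay in a coding exon 2144 bp from the TSS (rank 6624; 10814, 5477 and 10414 in the replicates). The AspRS summit (rank 4049; 4689, 4469 and 5269) lay in an intron, 273 bp from an AspRS TSS and 213 bp from one of Nmda1, a glutamate receptor subunit whose gene overlaps it. The eEF1delta summit (rank 2940; 2948, 4120 and 1819) lay in its intron 522 bp from the TSS. eIF3c, which was marked, also held a stronger summit at its other end, rank 668 (606, 964 and 475), in its 3′ UTR and 148 bp from the TSS of CG30108.

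Some members fell just outside the window or the list. The nearest IDR summit lay 273 bp from a TSS for AspRS, 282 bp for eIF2beta and 361 bp for ValRS. Replicate 1 placed its own summit of rank 6304 inside the eIF2beta window, and replicate 2 its summit of rank 6701 inside that of ValRS. Of the 63 unmarked members, 12 were marked by the 7769 strongest peaks of at least 1 library and 11 of these by 1 library only. AspRS was so marked by replicates 1 and 3, and ArgRS, eIF3b, eIF4A and eIF4E1 by 1 library each while having weaker promoter summits in the others. At the other end, 40 of the 63 had no promoter summit in any replicate list (63.5%, against 68.7% of the 11809 unmarked protein-coding genes). The nearest IDR summit lay over 5000 bp away for 45 of them (71.4%, against 63.3%).

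By chromosome arm the numbers of marked members were small, at 5 of 11 on 2L, 7 of 20 on 2R, 5 of 21 on 3L, 2 of 20 on 3R, 1 of 10 on X and 0 of 1 on chromosome 4. Among all protein-coding genes the share ran from 13.4% on X to 17.7% on 3L for the long arms and was 35% on chromosome 4.

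Translation genes whose symbols lie outside the rule were read for comparison, from a list of 31 symbols of which 30 were found. In the IDR list 11 of the 30 were marked (36.7%, against the same 15.3%). Of the release and recycling factors 2 of 5 were, eRF3 (rank 1533) and pelo (rank 4338). Of the synthetase and synthetase-like genes with other symbols 2 of 4 were marked. They were GluProRS (rank 1465), the fused glutamate and proline enzyme, and the synthetase-like gene Slimp (rank 4062). The synthetase genes alpha-PheRS and beta-PheRS were not marked. Translation regulators were marked at 4 of 6: PEK (rank 3272), a kinase of eIF2alpha, Thor (rank 4258), the inhibitor that binds eIF4E, pAbp (rank 4498), which binds poly(A) tails, and Paip2 (rank 5980), which binds that protein.

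Factors of mitochondrial translation were marked at 3 of 9 (33.3%, against 15.3% of all protein-coding genes), mIF2 (rank 6445), mEFTu1 (rank 6748) and mEFG1 (rank 7139). None of the 3 AIMP genes, which encode the scaffold of the multi-synthetase complex, and none of the 3 genes of the mitochondrial amidotransferase was marked, and groups of 3 are too small to set against that share.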

How the data were processed

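Peak lists of 3 D19A-eGFP ChIP-seq libraries of 1 group were used: 1 list per library, 1 pooled and 1 IDR list. The submitters' file records place all coordinates on dm6, derive the replicate and pooled lists from alignments and 1 control file, which all libraries share, and derive the IDR list from those lists. The aligner, the peak caller and the cutoff of the IDR step were each not given in the sources used here. The signal value of each peak is the authors' own, with no stated normalization, and served only to rank peaks within a list. The deposited summit offset gave each summit, and 3 IDR summits fall outside their interval and were kept. Depth is unknown, so intervals cover the counting of genes only.

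Gene models were those of Ensembl release 115 without transposable elements, and sequence came from the RefSeq assembly with the same coordinates, as 99.8% of 30593 annotated start codons read ATG there. A marked gene had a summit within 250 bp of a TSS, and overlap meant at least 1 bp. Shares carry 95% Wilson intervals. The labels call the libraries biological replicates and say no more on their collection. The functions were tested on planted peaks. Python 3.11.15, pandas 2.3.3, NumPy 2.4.6, SciPy 1.17.1 and matplotlib 3.10.9 were used.

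Members and lists were chosen with earlier results of these data known, so counts are set beside the background without a test. The text names every member with an IDR summit at the promoter or in the gene, those with an IDR summit beyond 250 but within 500 bp, and the 5 others marked in most replicates, with ties, which that rule left undecided, going to members with a promoter summit in more replicate lists; other genes named were chosen after their values were seen. The alternatives changed the window, the TSSs used, the peak list, the demand for replicate support, the summit window, the divergent distance and the libraries kept.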

Additional observations from a re-analysis of the deposited data

How the results depend on the processing

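The 20 marked members became 9 with the 3884 strongest IDR peaks, 31 with the pooled list, 13 with support among the strongest 7769 peaks of every replicate and 10 with a window of 100 bp. These alternatives also changed the background, to 7.82%, 31%, 10.2% and 5.46% of protein-coding genes. Factors became 6 among the 3884 strongest and 7 with support by every replicate, cytoplasmic synthetases 2 among the 3884 strongest, 8 in the pooled list and 0 within 100 bp, and mitochondrial synthetases 1, 5 in the pooled list and 1 with that support. Members with a summit at the promoter or in the gene fell from 23 to 11 among the 3884 strongest (13.3%, below the 15.1% of protein-coding genes, where the main share was above) and to 15 with 100 bp (18.1%, against 17.6%). Leaving out a replicate could not remove it from the IDR list, which came from all 3 libraries. It meant a filter that kept IDR peaks overlapping the strongest 7769 of both other libraries. This filter gave 13 to 17 marked members (15.7% to 20.5%, against 10.7% to 12.4%), 7 to 10 factors, 5 cytoplasmic and 1 to 2 mitochondrial synthetases, through fewer peaks (5725 to 6310). It also gave 16 to 19 members with a summit at the promoter or in the gene (19.3% to 22.9%, against 18.6% to 20.4%). A window of 500 bp gave 23 marked members (against 20.1%) and the most 5′ TSS alone 18 (against 13.2%).

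The replicate mean of 20.7 became 9.67 with 3884 peaks per library, 35.3 with full lists and 8.67 with 100 bp, and 17.5 to 24 without a replicate. Peaks supported in every replicate numbered 20, or 13 among the strongest 7769 only. The mean A or T share of 64.3% was 63.4% within 25 bp of the summit, 65.2% within 100 bp and 66.7% for the 3884 strongest. It was 63.2% to 63.6% under the filter that leaves out the support of a replicate. These shifts were above the replicate SD of 0.357. The divergent share of 60% was 25% with partners within 250 bp, 75% within 1000 bp and 55% with protein-coding partners. Under the same filter it was 58.8% to 61.5%. Of the 20 marked members, LeuRS-m, eEF1gamma and eIF6 were marked under all 10 alternatives. The causes of these shifts were not tested. Several of the alternatives also changed the number of peaks. No paired analysis was possible because there is 1 group.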

Other observations

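A few members carried a strong promoter peak in a single library. SerRS, which charges serine tRNA, had a promoter summit of rank 1285 in replicate 2 and none in the lists of replicates 1 and 3, and the nearest pooled summit lay 2544 bp away. ProRS-m had one of rank 2449 in replicate 1 alone, with the nearest pooled summit 15316 bp away, and eIF2D one of rank 2999 in replicate 2 alone, with the nearest pooled summit 1497 bp away. These 3 genes were chosen after their values were seen.

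eIF2Bbeta, a subunit of the exchange factor of eIF2 with no promoter summit in any list, had the pooled peak of rank 75 at 685 bp from its TSS, outside both the 250 bp and the 500 bp windows.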
